A study of Homo sapiens with 4 samples.

Results

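HT-1080 cells are a human fibrosarcoma line that is much used in work on ferroptosis, an iron-dependent death of cells through lipid peroxidation. The comparison described here sets 1 RNA-seq library of HT-1080 cells with genotype sgPKA against 2 libraries of HT-1080 cells with genotype sgNC, a control guide, called sgNC 1 and sgNC 2. These are 3 of the 4 libraries of the series, and the other library, of genotype sgALKBH5, enters only the mean level that decides which genes were described and the count models. The genes were all those with a mean of at least 1 TPM (transcript abundance scaled for gene length and depth) over the 4 libraries, which left 11629 of 20323. At this limit RADX, with a mean of 1.0015 TPM, lay just inside and MYB, with 0.994 TPM, just outside. The design text calls the guide-bearing cells knockout derivatives, and the series title ties the kinase to ferroptosis through m6A, a methyl mark of RNA, on the transcript of GPX4. Which subunit gene the sgPKA guide targeted is not in the labels, nor whether the cells were clones or a pool, nor whether the sgNC libraries came from separate cultures. All groups were grown in the same medium with serum, and the labels name no treatment or batch.

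Protein kinase A is a tetramer of a pair of regulatory and a pair of catalytic subunits. Cyclic AMP, made by adenylyl cyclases and removed by phosphodiesterases, binds the regulatory subunits and frees the catalytic subunits. These phosphorylate enzymes of glycogen and lipid metabolism, ion channels, regulators of the actin cytoskeleton and transcription factors such as CREB, which binds the cyclic AMP response element of promoters. A-kinase anchoring proteins hold the kinase at defined places in the cell, and Gli factors of the Hedgehog pathway and YAP are among the proteins it restrains.

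Total counts were 14050867 in sgPKA, 18469299 in sgNC 1 and 18522402 in sgNC 2, so that 3 counts correspond to 0.201, 0.165 and 0.167 in these libraries on the scale of CPM (counts scaled by library size and TMM factor). Of the 17 mesenchymal markers listed, 12 were measured. VIM was at 7839 TPM in sgPKA, against 6729.6 in sgNC 1 and 6839.5 in sgNC 2, while the fibroblast genes LUM, DCN and FAP had no counts. The summed level of the 16 epithelial markers was lower in sgPKA, at 482 TPM, against 1408 TPM in sgNC 1 and 1036 TPM in sgNC 2, nearly all of it from KRT8 and KRT18, and the defining genes EPCAM and CDH1 had no counts in these 3 libraries. Among 13 blood cell markers, CD68, LYZ and CSF1R were measured, while PTPRC, the pan-leukocyte gene, had 0 counts in sgPKA, against 2 in each control. The level of CSF1R was 10.3 TPM in sgPKA, against 2.65 in sgNC 1 and 21.2 in sgNC 2. Of 10 endothelial markers TIE1 was measured. In such bulk RNA, fewer cells of a kind and less RNA per cell cannot be told apart.

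PRKACA, which encodes catalytic subunit alpha (ENSG00000072062, in RefSeq on GRCh38.p14 at chr19:14091688-14117762), had 191 counts in sgPKA, against 1426 in sgNC 1 and 1728 in sgNC 2. The level was 10.6 TPM in sgPKA, against 60.5 in sgNC 1 and 70.1 in sgNC 2. After scaling for depth its count ratio was 0.163 to sgNC 1 (95% exact interval 0.139 to 0.190) and 0.133 to sgNC 2 (0.114 to 0.155), and these intervals cover counting error only. The sgPKA library thus lay far below both controls, which were close to each other. In edgeR the log2 fold change was -2.77. This value compares 3 libraries, 1 of them sgPKA, and the difference has no replicate check. The guide's sequence was not used here, and reads of a transcript that carries a small deletion would still be counted, so this level checks the label without showing which gene was cut.

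PRKACA was the 1 of 9 measured genes of PKA subunits and inhibitors that lay at least 2-fold from both controls. Over all genes, 1.04% passed this rule on the higher side and 1.39% on the lower. By any amount there were 7 above and 2 below both controls, beside 50.3% and 26.9% of all genes, and the median difference in log2(TPM + 1) was 0.52 against sgNC 1 and 0.42 against sgNC 2, with 0.06 between sgNC 2 and sgNC 1. After subtraction of the median of genes with like GC content, described with the GC results, the medians were 0.27 and -0.03, so that the difference against sgNC 2 was close to 0. PRKAR1B, a brain-enriched regulatory subunit, was at 36.6 TPM in sgPKA, against 19.9 in sgNC 1 and 17.6 in sgNC 2. Its counts differed less, with 353 counts in sgPKA, against 317 in sgNC 1 and 239 in sgNC 2. PRKX, a related kinase encoded on the X chromosome, was at 13.4 TPM in sgPKA, against 9.05 in sgNC 1 and 8.24 in sgNC 2. PKIG, an inhibitor peptide of the catalytic subunit, was lower, at 26.1 TPM in sgPKA, against 46.7 in sgNC 1 and 37.01 in sgNC 2. The catalytic subunit gene PRKACB lay close to sgNC 2 and above sgNC 1, at 7.28 TPM in sgPKA, against 3.46 in sgNC 1 and 6.79 in sgNC 2.

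Among the proteins around the kinase, 0 of 17 measured anchoring protein genes, 0 of 7 phosphodiesterase genes and 0 of 10 genes of adenylyl cyclases and their G alpha subunits lay at least 2-fold from both controls. Of the anchoring proteins there were 12 above and 2 below both controls, with medians of 0.22 against sgNC 1 and 0.38 against sgNC 2, with -0.07 between sgNC 2 and sgNC 1. AKAP11, which binds glycogen synthase kinase 3, was highest relative to the controls, at 6.91 TPM in sgPKA, against 3.04 in sgNC 1 and 3.17 in sgNC 2. EZR, the most abundant, encodes the membrane-to-actin linker ezrin and was at 202 TPM in sgPKA, against 269 in sgNC 1 and 216 in sgNC 2. The phosphodiesterase medians were 0.06 against sgNC 1 and 0.32 against sgNC 2, with -0.58 between sgNC 2 and sgNC 1. PDE4A, a cyclic AMP-specific enzyme that PKA phosphorylates, was at 6.97 TPM in sgPKA, against 16.6 in sgNC 1 and 7.94 in sgNC 2, so that sgPKA lay close to sgNC 2 and the controls lay farther apart. The cyclase and G alpha genes had medians of -0.17 against sgNC 1 and -0.10 against sgNC 2, with -0.06 between sgNC 2 and sgNC 1. GNAS, the stimulatory G alpha subunit, was at 765 TPM in sgPKA, against 940.1 in sgNC 1 and 879.7 in sgNC 2. The 13 measured Hedgehog genes had 0 members past 2-fold and medians of -0.06 against sgNC 1 and 0.25 against sgNC 2, with -0.35 between sgNC 2 and sgNC 1. GLI2, a transcription factor of that pathway, was at 9.45 TPM in sgPKA, against 5.79 in sgNC 1 and 6.22 in sgNC 2. HHIP, a target gene and decoy receptor for Hedgehog ligands, was at 12.8 TPM in sgPKA, against 63.5 in sgNC 1 and 6.54 in sgNC 2, so that its difference changed sign with the control. Less the GC bin median, these lists had medians of 0.14 and 0.26 (anchoring proteins), -0.09 and 0.02 (phosphodiesterases), -0.05 and -0.07 (cyclases and G alpha) and -0.06 and 0.12 (Hedgehog), against sgNC 1 and sgNC 2 in turn.

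Differences in log2(TPM + 1) spread over all 11629 genes with a standard deviation of 0.738 for sgPKA against sgNC 1 and 0.547 for sgPKA against sgNC 2, beside 0.585 for sgNC 2 against sgNC 1. Against sgNC 1, 467 genes (4.02%) were at least 2-fold higher in sgPKA and 668 (5.74%) at least 2-fold lower. Against sgNC 2 the split turned, with 401 genes (3.45%) higher and 267 (2.3%) lower. As background, sgNC 2 lay at least 2-fold above sgNC 1 for 222 genes (1.91%) and at least 2-fold below it for 523 (4.5%). Differences of at least 8-fold were 13 higher and 97 lower against sgNC 1, 2 higher and 20 lower against sgNC 2, and 8 higher and 55 lower between sgNC 2 and sgNC 1. Requiring both controls left 121 genes (1.04%) above and 162 (1.39%) below. At this limit C15orf40, at 1.0013 from the nearer control, lay inside and DNER, at 0.995, outside. On the other side RCN3, at -1.0013, lay inside and TEX19, at -0.9986, outside. By any amount, sgPKA lay above both controls for 5851 genes (50.3%), below both for 3132 (26.9%) and between or level with them for 2646 (22.8%). After the subtraction for GC content described below, which centres the differences against each control on 0, the shares were 35.7% above and 35.5% below. Near-equal shares follow from that centring, and the source of the excess of higher genes was not tested. The median of all genes was 0.11 against sgNC 1 and 0.19 against sgNC 2, and -0.08 between the controls, and list medians below are read against these. In the quasi-likelihood test of edgeR 0 of 13061 genes were called at an adjusted p of 0.05, with 1184 at an unadjusted p under 0.05, while DESeq2 called 118 of 11571 (1.02%), 13 higher and 105 lower, and limma called 0. DESeq2 called 11 of the 121 genes and 74 of the 162. Since nothing says that the controls were separate cultures, these p-values measure only the spread between these 2 libraries, which may be technical. The words higher and lower below therefore describe these libraries.

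The genes lower in sgPKA than in both controls included several that were near the floor of detection in sgPKA. Of the 162, 26 had 0 counts in sgPKA and 44 had at most 3, and among all 11629 genes 123 had 0 and 218 had at most 3. The rule itself picks genes with few counts in sgPKA, so these numbers are a description. HSD11B1 (chr1:209686179-209734929), the enzyme that regenerates active glucocorticoid, was lower by a similar amount against either control, at 13.6 TPM in sgPKA, against 240.0 in sgNC 1 and 258 in sgNC 2. Its depth-scaled count ratios were 0.0505 (95% exact interval 0.0404 to 0.0623) and 0.0445 (0.0357 to 0.0550). SH2D2A, an adaptor protein best known from T cells, was at 1.11 TPM in sgPKA, against 24.5 in sgNC 1 and 26.9 in sgNC 2. MAGEA1, a cancer-testis antigen of the X chromosome whose family members are alike in sequence, was at 0.556 TPM in sgPKA, against 15.1 in sgNC 1 and 15.98 in sgNC 2. In these 3 genes the controls lay within 0.13 of each other on log2(TPM + 1), and the difference of sgPKA from the nearer control was between -4.04 and -3.37. LRP3, a member of the LDL receptor family, had 3 counts in sgPKA, against 516 in sgNC 1 and 428 in sgNC 2. Its depth-scaled ratio was 0.00707 to sgNC 1 (95% exact interval 0.00145 to 0.0208) and 0.00844 to sgNC 2 (0.00173 to 0.0248).

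For other genes on the lower side the controls also differed. TIMP3, an inhibitor of matrix metalloproteinases, was at 0.799 TPM in sgPKA, against 35.1 in sgNC 1 and 19.6 in sgNC 2. It lies within the gene SYN3 on the other strand, and because the sources used here do not say whether strand was used in counting, reads of the pair cannot be told apart. CD9, a tetraspanin of the cell surface, had 0 counts in sgPKA, against 418 in sgNC 1 and 138 in sgNC 2, at least 115-fold and at least 38.2-fold lower when 3 counts per library are taken as the floor. BEX1, an X-linked gene of the nervous system, had 0 counts in sgPKA, against 221 in sgNC 1 and 129 in sgNC 2, at least 60.6-fold and at least 35.7-fold lower. The hair keratin gene KRT81 was at 18.1 TPM in sgPKA, against 1299.9 in sgNC 1 and 283 in sgNC 2, and it resembles its neighbours so closely that the division of reads among them is uncertain. PAEP, which encodes glycodelin, was at 2.12 TPM in sgPKA, against 74.7 in sgNC 1 and 26.1 in sgNC 2. CA9, the carbonic anhydrase induced in hypoxia, was at 1.22 TPM in sgPKA, against 89.9 in sgNC 1 and 17.7 in sgNC 2. The embryonic globin gene HBE1 was at 3.69 TPM in sgPKA, against 186 in sgNC 1 and 32.5 in sgNC 2. In KRT81, PAEP, CA9 and HBE1, sgNC 2 was itself lower than sgNC 1, by differences between -2.48 and -1.48 on log2(TPM + 1), while sgPKA was lower still. SMIM11, a small membrane protein gene with a near-identical copy, was at 0.401 TPM in sgPKA, against 17.2 in sgNC 1 and 22.98 in sgNC 2, a value that depends on how reads were shared between the copies.

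**Figure D1:**
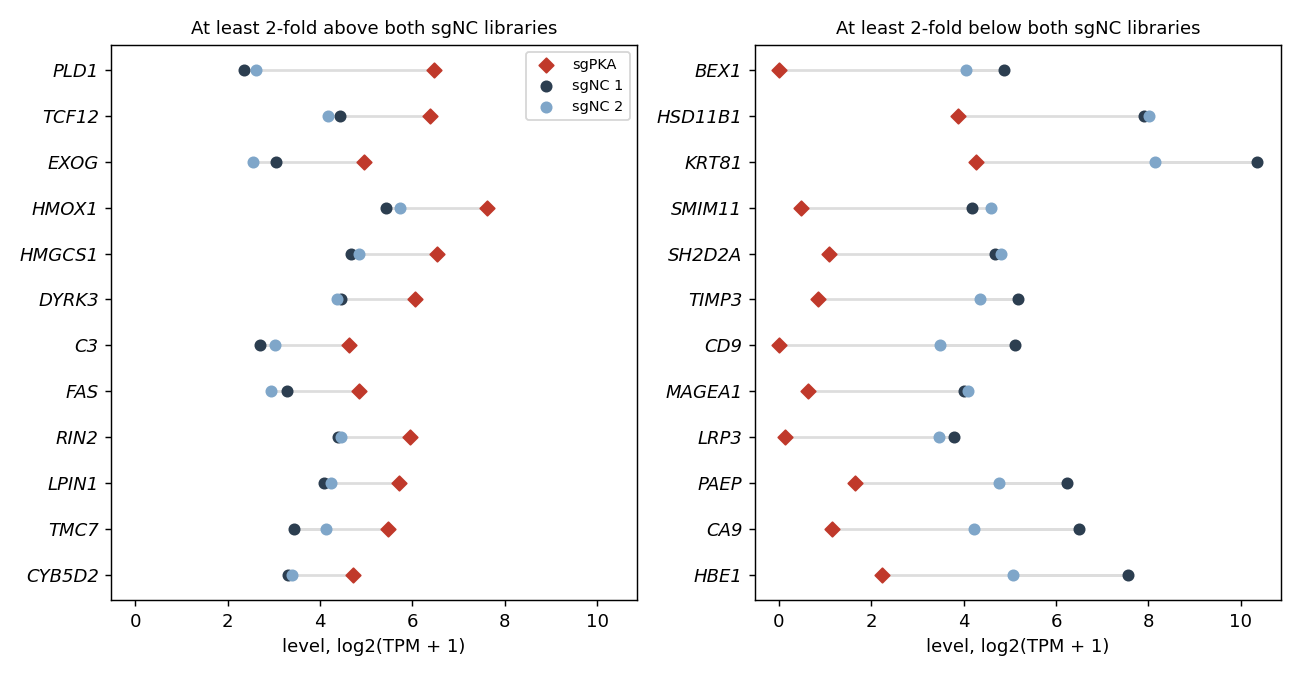
Level of the 12 genes on each side farthest from the nearer control, on log2(TPM + 1), in sgPKA (red diamonds), sgNC 1 (dark circles) and sgNC 2 (light circles); each point is 1 library. In every row sgPKA lies outside both controls, which differ least for HSD11B1, MAGEA1, RIN2, DYRK3 and CYB5D2 and most for HBE1, CA9 and KRT81.

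The 250 bases before the start of these genes were searched on both strands for response elements, using RefSeq promoters on GRCh38.p14, of which 6597 could be joined to a measured gene by a unique symbol, 98 of the 162 lower genes and 42 of the 121 higher genes among them. The cyclic AMP response element TGACGTCA, the site of CREB, stood in 2 of 98 promoters of lower genes (2.04%) and 0 of 42 of higher genes, against 228 of all 6597 (3.46%). Its core TGACG, which the full element contains, stood in 27.6%, 31.0% and 32.3%. The AP-1 site, bound by Fos and Jun dimers, which respond to growth factor and stress signals, was searched as TGANTCA with any base at N. This pattern is wider than the usual site, which has G or C there. It stood in 14 of 98 promoters of lower genes (14.3%) and 2 of 42 of higher genes (4.76%), against 242 of all 6597 (3.67%). The antioxidant element core TGACNNNGC, which can overlap an AP-1 site, stood in 11.2%, 11.9% and 12.5%. The amino acid response core TGATGNAA was held by 1 promoter in each set and 1.06% of all, and the CLEAR box of lysosomal genes by 0 in each set and 0.728% of all.

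The AP-1 sites are shown for the 7 lower genes named in the text, because this motif is the one whose share differed most, in percentage points, from that of all promoters. Each line gives the site in capitals with up to 20 bases on either side, on the strand of the gene, from chr9:135561641-135561687 for PAEP, chr9:35673831-35673877 for CA9, chr10:90921256-90921302 for ANKRD1 (minus strand), chr4:73740412-73740458 for CXCL8, chr19:55370533-55370579 for IL11 (minus strand), chr18:63887583-63887629 for SERPINB2 and chr1:94541943-94541989 for F3 (minus strand), the others on the plus strand.
PAEP: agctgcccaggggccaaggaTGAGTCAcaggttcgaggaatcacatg
CA9: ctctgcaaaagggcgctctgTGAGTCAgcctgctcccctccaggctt
ANKRD1: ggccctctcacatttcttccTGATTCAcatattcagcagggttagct
CXCL8: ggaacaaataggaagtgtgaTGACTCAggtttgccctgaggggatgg
IL11: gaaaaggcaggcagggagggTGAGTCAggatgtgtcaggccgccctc
SERPINB2: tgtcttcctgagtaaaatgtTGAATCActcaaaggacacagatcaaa
F3: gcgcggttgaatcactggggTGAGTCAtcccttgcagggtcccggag
The sites begin 95, 77, 195, 137, 96, 102 and 210 bases before the start, in the order of the lines. In the sites in capitals, N is T for ANKRD1, A for SERPINB2 and G or C for the others. The promoter of F3 holds a second site, 223 bases before the start, which stands in lower case within its line. The 2 lower genes with a full cyclic AMP response element are the autophagy gene GABARAPL1 (chr12:10212827-10212874, plus strand) and the phosphatase gene DUSP1 (chr5:172771293-172771340, minus strand).
GABARAPL1: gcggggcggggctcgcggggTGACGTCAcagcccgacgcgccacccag
DUSP1: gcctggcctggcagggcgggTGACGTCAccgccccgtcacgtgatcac
GABARAPL1 was at 8.65 TPM in sgPKA, against 37.3 in sgNC 1 and 19.6 in sgNC 2, and DUSP1, which switches off MAP kinases, was at 6.15 TPM in sgPKA, against 29.2 in sgNC 1 and 13.7 in sgNC 2. For both, sgPKA was lowest, and sgNC 2 lay between it and sgNC 1. GABARAPL1 is among the genes whose length implied by count and TPM was over 1.5-fold longer in sgPKA, and its depth-scaled count ratio was 0.354 to sgNC 1 (95% exact interval 0.287 to 0.434) and 0.636 to sgNC 2 (0.506 to 0.795), so it did not pass 2-fold against sgNC 2 in counts.

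The share of AP-1 sites among lower genes stood above that of all promoters at each level of promoter GC content. In the quartile of promoters with the lowest GC content the site was present in 7 of 34 lower genes (20.6%), against 6.72% of all, and in the quartile with the highest in 2 of 21 (9.52%), against 1.82%. The remaining quartiles held 2 of 20 (10.0%, against 3.93%) and 3 of 23 (13.04%, against 2.13%). Read the other way, 14 of the 242 genes with a site (5.79%) were at least 2-fold below both controls, against 1.32% of the 6355 genes without one. The 242 genes as a group did not stand lower: their median difference was 0.14 against sgNC 1 and 0.18 against sgNC 2, with 115 above and 65 below both controls. Between the controls, sgNC 2 was at least 2-fold below sgNC 1 for 5.79% of the genes with a site and 3.87% of those without. Of the subunit genes of AP-1, FOS was at 15.4 TPM in sgPKA, against 46.3 in sgNC 1 and 19.3 in sgNC 2, FOSB at 0.879 TPM in sgPKA, against 9.79 in sgNC 1 and 3.03 in sgNC 2, and the most abundant, FOSL1, at 733 TPM in sgPKA, against 694 in sgNC 1 and 992 in sgNC 2. JUN was at 121 against 143 and 174 TPM (sgPKA against sgNC 1 and sgNC 2), JUNB at 52.8 against 96.4 and 59.5 TPM. JUND was at 39.8 against 54.9 and 56.7 TPM. FOSL2 lay between the controls, at 81.4 against 130 and 60.7 TPM. A match is a description of these letters and does not show that a factor bound there.

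The genes higher in sgPKA than in both controls included HMOX1, HMGCS1, DYRK3, C3, FAS, RIN2, LPIN1, TMC7 and CYB5D2 among the 12 farthest from the nearer control. HMOX1 (chr22:35381096-35394207), the haem oxygenase that degrades haem to biliverdin, carbon monoxide and iron, was at 196 TPM in sgPKA, against 42.05 in sgNC 1 and 52.4 in sgNC 2. Its depth-scaled count ratios were 4.32 (95% exact interval 3.96 to 4.73) and 3.24 (2.99 to 3.51). HMGCS1, which makes the HMG-CoA from which sterols are built, was at 91.7 TPM in sgPKA, against 24.6 in sgNC 1 and 27.8 in sgNC 2. LPIN1, a phosphatidate phosphatase that makes diacylglycerol, was at 51.3 TPM in sgPKA, against 16.1 in sgNC 1 and 17.9 in sgNC 2. DYRK3, a kinase that dissolves stress granules, was at 65.9 TPM in sgPKA, against 20.8 in sgNC 1 and 19.5 in sgNC 2. In all 4 genes the controls lay close together and sgPKA was well outside them. The complement component gene C3 was at 23.6 TPM in sgPKA, against 5.54 in sgNC 1 and 7.13 in sgNC 2. The death receptor gene FAS was at 27.8 TPM in sgPKA, against 8.68 in sgNC 1 and 6.70 in sgNC 2. RIN2, an exchange factor for the endosomal GTPase Rab5, was at 60.6 TPM in sgPKA, against 19.8 in sgNC 1 and 20.8 in sgNC 2, and TMC7, a gene of the transmembrane channel-like family, at 43.3 TPM in sgPKA, against 9.75 in sgNC 1 and 16.5 in sgNC 2. CYB5D2 was at 25.4 TPM in sgPKA, against 8.89 in sgNC 1 and 9.51 in sgNC 2, with 257 counts in sgPKA, against 142 in sgNC 1 and 136 in sgNC 2. For HMOX1, HMGCS1, DYRK3, C3, RIN2 and LPIN1 the adjusted p of DESeq2 was between 0.000406 and 0.0375, while for FAS, TMC7 and CYB5D2 it was 0.205, 0.0699 and 0.69. In edgeR none was called.

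For 3 of the 12 higher genes farthest from the controls the deposited TPM and the counts gave different pictures. PLD1, a phospholipase that makes phosphatidic acid, was at 87.9 TPM in sgPKA, against 4.11 in sgNC 1 and 5.14 in sgNC 2. In counts it was at 318 counts in sgPKA, against 242 in sgNC 1 and 260 in sgNC 2, and the depth-scaled ratio was 1.60 (95% exact interval 1.35 to 1.90) and 1.47 (1.246 to 1.74). The transcription factor gene TCF12 was at 82.2 TPM in sgPKA, against 20.7 in sgNC 1 and 16.98 in sgNC 2, with 995 counts in sgPKA, against 849 in sgNC 1 and 725 in sgNC 2. The mitochondrial nuclease gene EXOG was at 29.9 TPM in sgPKA, against 7.20 in sgNC 1 and 4.82 in sgNC 2, with 188 counts in sgPKA, against 175 in sgNC 1 and 121 in sgNC 2. TPM divides the count of a gene by its effective length, which the authors' tool estimates from the mix of transcripts in each library, so a shorter estimated mix gives a higher TPM for the same count. For PLD1 the length implied by count and TPM was 12.3-fold and 10.1-fold shorter in sgPKA than in the controls, for EXOG 2.92-fold and 2.89-fold, and for TCF12 2.56-fold and 2.55-fold. Transcript values were not analysed here, so the transcripts behind these lengths are not known.

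Among 10598 genes with at least 30 counts in every library, 25 had an implied length at least 1.5-fold shorter in sgPKA than in both controls, and 9 of these were at least 2-fold higher in TPM. HOOK3, a dynein adaptor, and SPATA13, an exchange factor for small GTPases, were at 9.64 against 2.33 and 2.98 TPM and 11.4 against 3.12 and 2.81 TPM (sgPKA against sgNC 1 and sgNC 2). CGN, the tight junction gene cingulin, had fewer counts in sgPKA at a like TPM. It was at 3.72 TPM in sgPKA, against 3.15 in sgNC 1 and 4.21 in sgNC 2, with 59 counts in sgPKA, against 159 in sgNC 1 and 224 in sgNC 2. In the other direction, 28 genes had an implied length at least 1.5-fold longer, and 3 of these were at least 2-fold lower in TPM. PARP16, an ADP-ribosyltransferase of the endoplasmic reticulum, was at 11.3 TPM in sgPKA, against 65.97 in sgNC 1 and 30.1 in sgNC 2, with 169 counts in sgPKA, against 518 in sgNC 1 and 313 in sgNC 2. DNAJB14, a cochaperone of the same membrane, was at 3.63 TPM in sgPKA, against 8.80 in sgNC 1 and 8.21 in sgNC 2, although counts were not lower, with 134 counts in sgPKA, against 120 in sgNC 1 and 110 in sgNC 2. Of the 121 genes on the higher side of the 2-fold rule in TPM, 49 were so on normalised CPM as well, and of the 162 below, 147.

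**Figure D2:**
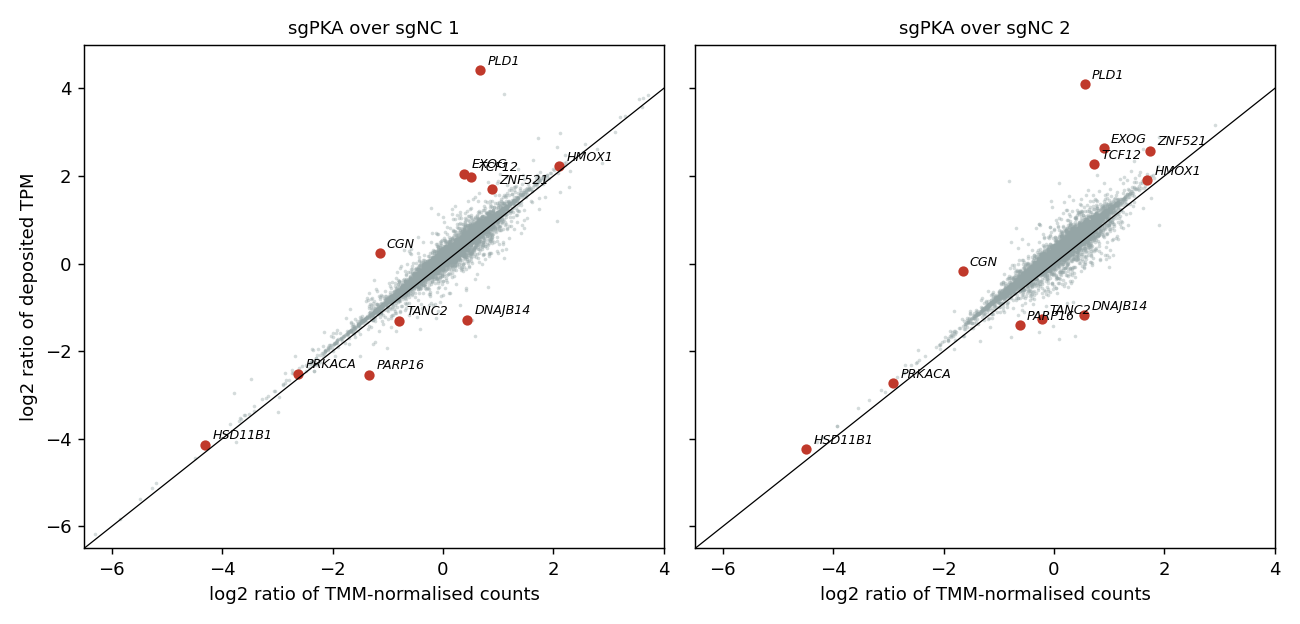
Log2 ratio of deposited TPM against log2 ratio of TMM-normalised counts, sgPKA over sgNC 1 (left) and sgPKA over sgNC 2 (right), for 10598 genes with at least 30 counts in every library (grey points); the line marks equal ratios. Genes named in the text are in red, and they were labelled after their values were seen. PLD1, EXOG, TCF12 and CGN lie above the line in both panels and PARP16, TANC2 and DNAJB14 below it, while HMOX1, PRKACA and HSD11B1 lie on or near it.

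The largest differences in absolute level were in abundant genes. EEF1A1, the elongation factor that brings aminoacyl-tRNA to the ribosome, was at 14133 TPM in sgPKA, against 10497 in sgNC 1 and 10551 in sgNC 2. FTH1, the ferritin heavy chain, was at 6557 TPM in sgPKA, against 4012 in sgNC 1 and 4413 in sgNC 2. SQSTM1, the autophagy receptor p62, was at 1591 TPM in sgPKA, against 754 in sgNC 1 and 814 in sgNC 2. ODC1, the first enzyme of polyamine synthesis, was at 1306 TPM in sgPKA, against 404 in sgNC 1 and 635 in sgNC 2. IL1B, the inflammatory cytokine, was at 1331 TPM in sgPKA, against 432 in sgNC 1 and 708 in sgNC 2. ODC1, at 1.04 from the nearer control, was past 2-fold against both. For ODC1 and IL1B the order was sgPKA, then sgNC 2, then sgNC 1, and the controls differed by 0.65 and 0.71 on log2(TPM + 1). The other members of this group were VIM, the intermediate filament gene, the translation-associated gene TPT1 at 2982 against 2033 and 2243 TPM and the chaperone gene HSPA8 at 3272 against 2553 and 2478 TPM. For VIM the differences in log2(TPM + 1) were 0.22 against sgNC 1 and 0.20 against sgNC 2, beside medians of 0.11 and 0.19 for all genes. Its depth-scaled count ratio was 1.05 to sgNC 1 and 0.974 to sgNC 2, so that in counts sgPKA lay below sgNC 2. EEF1A1, FTH1 and TPT1 have many processed copies in the genome, so their counts depend on how reads were shared. In the other direction were glycolytic enzymes: GAPDH at 12939 TPM in sgPKA, against 15710.1 in sgNC 1 and 14785 in sgNC 2, ENO1 at 4323 against 5434 and 5901 TPM (sgPKA against sgNC 1 and sgNC 2), ALDOA at 2543 against 3273 and 3471 TPM and TPI1 at 1190.3 against 1964 and 1739 TPM. LGALS1, the lectin galectin-1, was at 2498 against 3149.9 and 3414 TPM. The mitochondrial gene MT-CO1, a subunit of cytochrome oxidase, was also in this set. The genes named here lay outside both controls, with differences from the nearer control of -0.06 for MT-CO1 to -0.55 for TPI1 on log2(TPM + 1).

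In TPM, GPX4, which the series title names, and ALKBH5 were not past 2-fold. GPX4, which reduces lipid hydroperoxides, was lower than in both controls, at 269 TPM in sgPKA, against 419 in sgNC 1 and 464 in sgNC 2, with 1574 counts in sgPKA, against 3301 in sgNC 1 and 3870 in sgNC 2. The adjusted p was 0.527 in edgeR and 0.11 in DESeq2. ALKBH5, the m6A demethylase, was at 67.1 TPM in sgPKA, against 80.2 in sgNC 1 and 67.6 in sgNC 2.

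Gene lists were described by how many members lay at least 2-fold from both controls and by their medians. Of 38 lists, 21 had no member past 2-fold, 3 had a member above and 16 a member below. Over all genes 1.04% passed the rule on the higher side and 1.39% on the lower. In a short list, few or no members past 2-fold are therefore near the share of all genes. Examples beyond those set by rule were chosen after their values were seen, as the members farthest from the nearer control. Biosynthetic lists lay above the medians of all genes against both controls. Serine, glycine and one-carbon metabolism had 28 measured members, 19 above and 4 below both controls, with medians of 0.37 against sgNC 1 and 0.47 against sgNC 2, with -0.07 between sgNC 2 and sgNC 1. PSAT1, the aminotransferase of serine synthesis, was at 431 TPM in sgPKA, against 217 in sgNC 1 and 169.7 in sgNC 2. SLC25A32, the mitochondrial folate carrier, was at 45.02 TPM in sgPKA, against 25.1 in sgNC 1 and 23.5 in sgNC 2. AHCY, which clears S-adenosylhomocysteine and is the most abundant member, was lower, at 389 TPM in sgPKA, against 531 in sgNC 1 and 583 in sgNC 2. The 20 cytosolic aminoacyl-tRNA synthetases had 14 above and 3 below both controls and medians of 0.31 against sgNC 1 and 0.41 against sgNC 2, with -0.12 between sgNC 2 and sgNC 1. IARS1, the isoleucyl enzyme, was at 183 TPM in sgPKA, against 111 in sgNC 1 and 88.4 in sgNC 2, while VARS1, the valyl enzyme, was at 107 TPM in sgPKA, against 147 in sgNC 1 and 183 in sgNC 2 and MARS1, the methionyl enzyme, at 553 TPM in sgPKA, against 513 in sgNC 1 and 626 in sgNC 2. In both lists 0 members were past 2-fold. After subtraction of the median of genes with like GC content the medians of the one-carbon list were 0.22 and 0.25 and those of the synthetases 0.22 and 0.23.

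Lists of glycogen, lysosome and autophagy genes lay a little above the medians of all genes. Glycogen metabolism, a classical target of the kinase, had 19 measured members and medians of 0.30 against sgNC 1 and 0.36 against sgNC 2, with -0.16 between sgNC 2 and sgNC 1. PHKA1, a regulatory subunit of phosphorylase kinase, had 0 counts in sgPKA, against 510 in sgNC 1 and 81 in sgNC 2. GYS1, the muscle-type glycogen synthase, was at 36.9 TPM in sgPKA, against 72.98 in sgNC 1 and 60.8 in sgNC 2, and PHKB, another phosphorylase kinase subunit, at 23.9 TPM in sgPKA, against 13.7 in sgNC 1 and 11.4 in sgNC 2. The 50 lysosomal genes had 28 above and 13 below both controls and medians of 0.18 against sgNC 1 and 0.27 against sgNC 2, with -0.09 between sgNC 2 and sgNC 1. IDUA, which cuts glycosaminoglycans, was at 9.07 TPM in sgPKA, against 3.15 in sgNC 1 and 4.49 in sgNC 2. PSAP, the precursor of the saposins, was the most abundant, at 926 against 658 and 769 TPM. The 41 autophagy genes had 26 above and 9 below both controls and medians of 0.25 against sgNC 1 and 0.40 against sgNC 2, with -0.06 between sgNC 2 and sgNC 1. MAP1LC3B, which marks the autophagosome membrane, was at 120.1 TPM in sgPKA, against 65.96 in sgNC 1 and 70.3 in sgNC 2, whereas TFEB, a transcription factor of lysosomal genes, was at 4.51 TPM in sgPKA, against 11.6 in sgNC 1 and 8.79 in sgNC 2. The related GABARAPL1 was the only member past 2-fold in TPM, on the lower side, but its count ratio to sgNC 2 was 0.636. Relative to genes of like GC content, these lists had medians of 0.18 and 0.06 (glycogen), 0.04 and 0.14 (lysosome) and 0.02 and 0.09 (autophagy).

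In protein folding, the 34 genes of the endoplasmic reticulum had 0 members past 2-fold and medians of -0.04 against sgNC 1 and 0.38 against sgNC 2, with -0.35 between sgNC 2 and sgNC 1, beside 0.11 and 0.19 for all genes. With the GC trend subtracted, they were -0.10 and 0.04, so that the difference against sgNC 2 was close to 0. EDEM3, of the degradation pathway for misfolded glycoproteins, was at 13.3 TPM in sgPKA, against 6.39 in sgNC 1 and 5.85 in sgNC 2. The calcium-binding chaperone gene CALR was at 1216 TPM in sgPKA, against 1794 in sgNC 1 and 1430.2 in sgNC 2. The 27 cytosolic chaperones had medians of 0.08 against sgNC 1 and 0.17 against sgNC 2, with -0.04 between sgNC 2 and sgNC 1, and HSPH1, a nucleotide exchange factor for Hsp70, was at 54.5 TPM in sgPKA, against 27.5 in sgNC 1 and 33.4 in sgNC 2. The 46 proteasome genes had medians of -0.01 against sgNC 1 and 0.05 against sgNC 2, with -0.06 between sgNC 2 and sgNC 1, with PSMD2 at 861 against 863 and 958 TPM. Metallothioneins and zinc transporters numbered 16, 11 above and 2 below both controls, with medians of 0.21 against sgNC 1 and 0.41 against sgNC 2, with -0.34 between sgNC 2 and sgNC 1. MT2A, a metal-binding protein gene, was at 2125 TPM in sgPKA, against 1750.0 in sgNC 1 and 1676 in sgNC 2, and SLC30A1, the zinc exporter of the plasma membrane, at 24.4 TPM in sgPKA, against 15.1 in sgNC 1 and 10.9 in sgNC 2. Less the GC bin median, the medians were -0.06 and -0.19 (cytosolic chaperones), -0.13 and -0.18 (proteasome) and 0.09 and 0.21 (metallothioneins and zinc transporters).

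Cell cycle lists were close to the medians of all genes, with mitosis below them. DNA replication had 43 measured members, 23 above and 11 below both controls, with medians of 0.05 against sgNC 1 and 0.27 against sgNC 2, with -0.12 between sgNC 2 and sgNC 1. PCNA, the sliding clamp, was at 448 TPM in sgPKA, against 266 in sgNC 1 and 247 in sgNC 2, and MCM7, of the replicative helicase, at 373 TPM in sgPKA, against 412 in sgNC 1 and 419.6 in sgNC 2. Mitosis had 41 members, 15 above and 13 below both controls, with medians of -0.07 against sgNC 1 and 0.07 against sgNC 2, with -0.08 between sgNC 2 and sgNC 1. SPC24, of the kinetochore, was past 2-fold, at 24.6 TPM in sgPKA, against 51.6 in sgNC 1 and 68.01 in sgNC 2. AURKB, the kinase of the chromosomal passenger complex, was at 126 TPM in sgPKA, against 186 in sgNC 1 and 184 in sgNC 2, while ECT2, which drives cytokinesis, was at 44.99 TPM in sgPKA, against 23.1 in sgNC 1 and 26.97 in sgNC 2. Among 15 genes of G1 control, CDKN2D, an inhibitor of cyclin D kinases, was past 2-fold, at 8.79 TPM in sgPKA, against 22.6 in sgNC 1 and 18.9 in sgNC 2. RB1, the retinoblastoma gene, was at 33.5 TPM in sgPKA, against 16.1 in sgNC 1 and 16.6 in sgNC 2, and the medians were 0.15 against sgNC 1 and 0.21 against sgNC 2, with -0.17 between sgNC 2 and sgNC 1. Relative to genes of like GC content, mitosis was lower, at -0.28 and -0.34, while replication was at 0.03 and 0.01 and G1 control at 0.19 and 0.00.

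Matrix genes included several at low level in sgPKA. The 31 collagen chains and their enzymes had 5 above and 18 below both controls and medians of -0.52 against sgNC 1 and -0.20 against sgNC 2, with -0.46 between sgNC 2 and sgNC 1, so about as large a difference separated the controls as separated sgPKA from sgNC 1. COL1A1, a chain of fibrillar type I collagen, was at 0.184 TPM in sgPKA, against 7.69 in sgNC 1 and 2.29 in sgNC 2. COL16A1 was also past 2-fold, at 0.634 TPM in sgPKA, against 3.77 in sgNC 1 and 2.86 in sgNC 2, and LOXL1, a cross-linking enzyme, was higher, at 31.2 TPM in sgPKA, against 14.9 in sgNC 1 and 15.2 in sgNC 2. Of 22 genes of plasminogen activators, matrix proteases and their inhibitors, 5 were at least 2-fold below both controls and 1 above. MMP9, a gelatinase, was at 14.8 TPM in sgPKA, against 111 in sgNC 1 and 127 in sgNC 2. MMP3, the stromelysin, was at 7.09 TPM in sgPKA, against 15.7 in sgNC 1 and 17.8 in sgNC 2, and PLAT, the tissue-type activator, at 45.1 TPM in sgPKA, against 110.4 in sgNC 1 and 91.4 in sgNC 2. For these 3 the controls were close and sgPKA stood apart. SERPINB2, an inhibitor of plasminogen activators, was at 2.997 TPM in sgPKA, against 9.77 in sgNC 1 and 38.9 in sgNC 2, and SERPINB8, of the same family, was the member above, at 59.9 TPM in sgPKA, against 28.6 in sgNC 1 and 28.05 in sgNC 2. The list's medians were -0.07 against sgNC 1 and 0.14 against sgNC 2, with 0.05 between sgNC 2 and sgNC 1. Of 15 integrin chains 0 were past 2-fold, with medians of 0.20 against sgNC 1 and 0.14 against sgNC 2, with 0.08 between sgNC 2 and sgNC 1 and ITGA3, a laminin receptor chain, at 1032 against 791 and 936 TPM. With the GC trend subtracted, the medians were -0.78 and -0.16 (collagens), -0.06 and 0.10 (proteases) and 0.04 and -0.05 (integrins).

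Of 38 actin cytoskeleton genes 1 was past 2-fold. GSN, the actin-severing protein gelsolin, was at 28.6 TPM in sgPKA, against 95.9 in sgNC 1 and 59.6 in sgNC 2. CNN2, of the calponin family, was at 120.1 TPM in sgPKA, against 292 in sgNC 1 and 215 in sgNC 2, and DSTN, an actin-depolymerising protein, was higher, at 336 TPM in sgPKA, against 161 in sgNC 1 and 189 in sgNC 2. The medians were -0.05 against sgNC 1 and -0.05 against sgNC 2, with 0.02 between sgNC 2 and sgNC 1. The 19 S100 and annexin genes had medians of 0.06 against sgNC 1 and -0.27 against sgNC 2, with 0.28 between sgNC 2 and sgNC 1. ANXA3 had 0 counts in sgPKA, against 452 in sgNC 1 and 65 in sgNC 2, and S100A10, the partner of annexin A2 that binds plasminogen at the cell surface, was at 253 TPM in sgPKA, against 656 in sgNC 1 and 515 in sgNC 2. The 19 tetraspanins, with CD9 past 2-fold, had 4 above and 11 below both controls and medians of -0.21 against sgNC 1 and -0.22 against sgNC 2, with -0.01 between sgNC 2 and sgNC 1. Targets of YAP and TEAD numbered 22, 6 above and 10 below both controls, with medians of -0.22 against sgNC 1 and -0.08 against sgNC 2, with -0.38 between sgNC 2 and sgNC 1. ANKRD1, a nuclear ankyrin-repeat protein, was at 5.47 TPM in sgPKA, against 191 in sgNC 1 and 33.2 in sgNC 2. F3, the tissue factor that starts coagulation, was at 7.11 TPM in sgPKA, against 17.6 in sgNC 1 and 16.1 in sgNC 2, and CCN1, a matricellular protein, was at 285 TPM in sgPKA, against 563 in sgNC 1 and 676 in sgNC 2. For F3 and CCN1 the controls were close, while for ANKRD1 they differed by slightly more than sgPKA and sgNC 2 did. Less the GC bin median, the medians were -0.08 and -0.10 (actin), 0.00 and -0.41 (S100 and annexins), -0.24 and -0.08 (tetraspanins) and -0.30 and -0.14 (YAP and TEAD targets).

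Secreted signals depended on the control. The 24 interleukins, chemokines and colony-stimulating factors had medians of -0.53 against sgNC 1 and 0.16 against sgNC 2, with -0.61 between sgNC 2 and sgNC 1. CXCL8, which attracts neutrophils, was at 5.30 TPM in sgPKA, against 58.1 in sgNC 1 and 17.3 in sgNC 2. IL11, a cytokine of the IL-6 family, was at 5.51 TPM in sgPKA, against 69.9 in sgNC 1 and 17.6 in sgNC 2. The summed TPM of the list was nevertheless higher in sgPKA, at 1786 TPM, against 947 TPM in sgNC 1 and 1243 TPM in sgNC 2, most of it from IL1B. TGF-beta and BMP genes numbered 39, with medians of -0.40 against sgNC 1 and 0.00 against sgNC 2, with -0.42 between sgNC 2 and sgNC 1. TGFBI, an induced matrix protein, was at 12.1 TPM in sgPKA, against 203 in sgNC 1 and 31.5 in sgNC 2, ID1, a BMP target, was at 119 TPM in sgPKA, against 419 in sgNC 1 and 235 in sgNC 2, and the receptor gene TGFBR2 was higher, at 194 TPM in sgPKA, against 117 in sgNC 1 and 101.4 in sgNC 2. The 21 genes of MHC class I presentation had 0 members past 2-fold and medians of -0.37 against sgNC 1 and 0.10 against sgNC 2, with -0.56 between sgNC 2 and sgNC 1. ERAP2, a peptide-trimming enzyme, was at 34.3 TPM in sgPKA, against 18.9 in sgNC 1 and 17.96 in sgNC 2. In prostaglandin and leukotriene synthesis, with 17 measured members and medians of 0.01 against sgNC 1 and 0.00 against sgNC 2, with 0.02 between sgNC 2 and sgNC 1, PLA2G4C, a cytosolic phospholipase A2, was past 2-fold above, at 5.87 TPM in sgPKA, against 0.944 in sgNC 1 and 1.48 in sgNC 2. PTGR1, which inactivates prostaglandins and leukotriene B4, had 0 counts in sgPKA, against 75 in sgNC 1 and 32 in sgNC 2. Relative to genes of like GC content, the medians were -0.59 and 0.14 (cytokines), -0.53 and 0.03 (TGF-beta and BMP), -0.34 and 0.16 (MHC class I) and 0.07 and -0.19 (prostaglandin synthesis).

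The 12 measured mesenchymal markers had medians of -0.34 against sgNC 1 and 0.28 against sgNC 2, with -0.69 between sgNC 2 and sgNC 1, with COL1A1 past 2-fold. The 5 epithelial markers had medians of -1.39 against sgNC 1 and -1.38 against sgNC 2, with -0.55 between sgNC 2 and sgNC 1, with KRT7 at 1.09 TPM in sgPKA, against 10.5 in sgNC 1 and 5.13 in sgNC 2 and KRT8 at 209 TPM in sgPKA, against 686 in sgNC 1 and 546 in sgNC 2 past 2-fold. The 3 blood cell markers had medians of 1.12 against sgNC 1 and -0.32 against sgNC 2, with 1.37 between sgNC 2 and sgNC 1, and TIE1, the only endothelial one measured, differed by -0.28 from sgNC 1 and -2.45 from sgNC 2. With the GC trend subtracted, the mesenchymal, epithelial and blood cell medians were -0.46 and 0.02, -1.26 and -1.24 and 0.73 and -0.70.

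Housekeeping lists had 0 members past 2-fold. The 84 cytosolic ribosomal protein genes had medians of 0.08 against sgNC 1 and -0.18 against sgNC 2, with 0.24 between sgNC 2 and sgNC 1, with RPS2 at 9187 against 8840.2 and 11004 TPM. The 83 mitochondrial ones had medians of 0.04 against sgNC 1 and 0.03 against sgNC 2, with -0.02 between sgNC 2 and sgNC 1, with MRPL12 at 235 against 304 and 362 TPM. The 80 nuclear-encoded respiratory chain genes had medians of -0.02 against sgNC 1 and -0.15 against sgNC 2, with 0.14 between sgNC 2 and sgNC 1, with ATP5F1B, a subunit of ATP synthase, at 1379 against 1506 and 1439 TPM. The 13 mitochondrially encoded genes had 0 above and 6 below both controls and medians of -0.10 against sgNC 1 and -0.02 against sgNC 2, with -0.10 between sgNC 2 and sgNC 1, with MT-CO1 at 14645 against 15753 and 15317 TPM. The 15 clustered histone genes measured, whose transcripts mostly lack a poly(A) tail and whose copies are alike, had medians of -0.15 against sgNC 1 and 0.01 against sgNC 2, with -0.45 between sgNC 2 and sgNC 1, with H2BC12 at 87.4 against 94.7 and 83.9 TPM. Of 322 ZNF genes, 2 were at least 2-fold above both controls, ZNF521 at 8.76 TPM in sgPKA, against 2.70 in sgNC 1 and 1.46 in sgNC 2 and ZNF148 at 11.7 TPM in sgPKA, against 4.83 in sgNC 1 and 5.17 in sgNC 2. Their medians were 0.14 against sgNC 1 and 0.28 against sgNC 2, with -0.18 between sgNC 2 and sgNC 1, close to those of all genes. ZNF521 was also among the genes with a shorter implied length. Less the GC bin median, the mitochondrially encoded genes were at -0.37 and -0.35, the respiratory chain at -0.10 and -0.34, cytosolic ribosomal proteins at -0.01 and -0.35, mitochondrial ones at -0.11 and -0.16, histones at -0.31 and -0.06 and ZNF genes at -0.01 and 0.09.

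**Figure D3:**
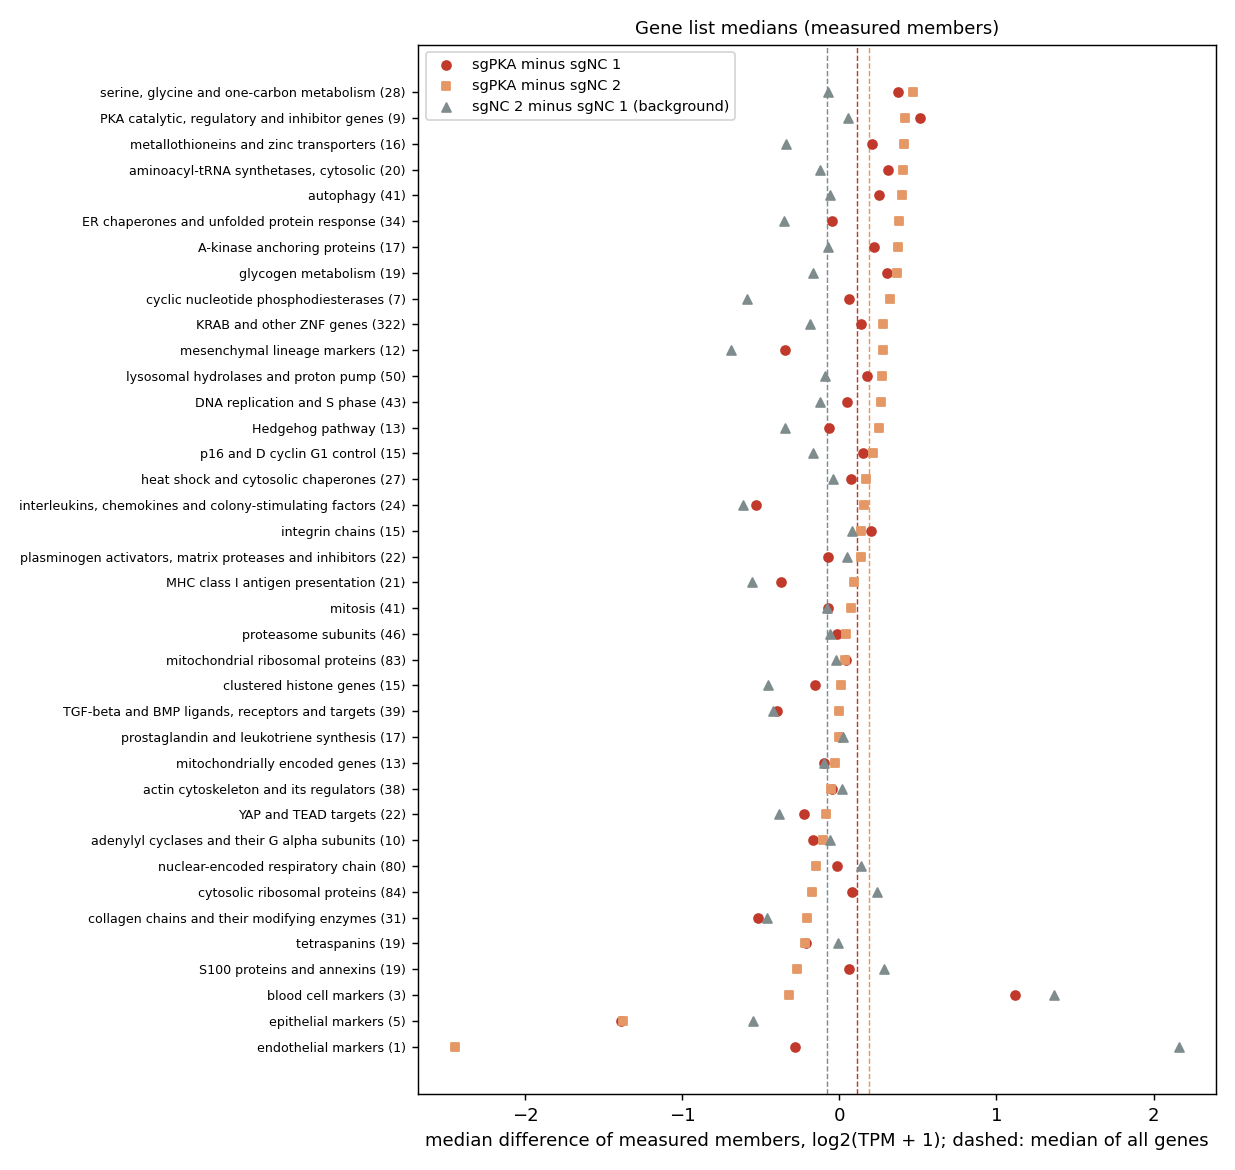
Median difference in log2(TPM + 1) of the measured members of each of 38 gene lists (number measured in brackets), for sgPKA minus sgNC 1 (red circles), sgPKA minus sgNC 2 (orange squares) and sgNC 2 minus sgNC 1 (grey triangles); dashed lines mark the medians of all 11629 genes, 0.11, 0.19 and -0.08. One-carbon metabolism lies above both sgPKA lines, at 0.37 and 0.47, and epithelial markers lie lowest against sgNC 1, at -1.39; the lists of cytokines and MHC class I genes lie apart against sgNC 1 and near the line against sgNC 2.

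Which control was used decided the result for a further set of genes. THBS1, the matrix glycoprotein thrombospondin-1, was at 16.3 TPM in sgPKA, against 526 in sgNC 1 and 13.3 in sgNC 2. JUP, the junction protein plakoglobin, was at 0.170 TPM in sgPKA, against 29.3 in sgNC 1 and 0.461 in sgNC 2. TINAGL1, a matrix protein, had 0 counts in sgPKA, against 1136 in sgNC 1 and 1 in sgNC 2, and P2RX5, an ATP-gated channel, had 0 counts in sgPKA, against 368 in sgNC 1 and 2 in sgNC 2. F8A1, which has near-identical copies on the X chromosome, had 0 counts in sgPKA, against 760 in sgNC 1 and 0 in sgNC 2. In these 5 genes sgPKA and sgNC 2 were both low and sgNC 1 was high. The reverse held for TIE1, a receptor of the angiopoietin system, at 25.7 TPM in sgPKA, against 31.5 in sgNC 1 and 144 in sgNC 2, for AMIGO2, an adhesion protein, at 105 TPM in sgPKA, against 124 in sgNC 1 and 30.5 in sgNC 2, and for BCAR3, an adaptor of Cas signalling, at 152 TPM in sgPKA, against 124 in sgNC 1 and 50.5 in sgNC 2. KLF10, a TGF-beta-inducible factor, was at 50.3 against 45.5 and 16.8 TPM, and SLC6A9, a glycine transporter, at 11.7 against 14.5 and 3.80 TPM. These 10 genes were picked for lying near 1 control and far from the other.

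Differences followed the GC content of transcripts. In the decile of genes with the lowest GC content (30.2% to 39.6%) the median difference was 0.47 against sgNC 1 and 0.46 against sgNC 2, and in the decile with the highest (62.5% to 74.9%) it was -0.16 and -0.23. Between the controls the same medians were 0.00 and 0.07, and the lowest of any decile was -0.16. The genes at least 2-fold above both controls had a median GC content of 46.4%, those below both 57.3% and all genes 50.2%. Of the genes above, 20 were in the lowest decile and 4 in the highest; of those below, 2 and 26. Medians also ran from 0.05 and 0.06 in the decile with the shortest transcripts to 0.28 and 0.38 in the decile with the longest. PRKACA (59.9% GC), GPX4 (62.8%), SPC24 (57.8%) and CDKN2D (61.3%) lie on the GC-rich side, and HMGCS1 (40.1%) and FAS (41.8%) on the other, while HMOX1 (58.1%) and C3 (58.8%) are GC-rich and higher, and HSD11B1 (43.4%) and ANKRD1 (43.3%) are GC-poor and lower. When the median of genes of like GC content, in 20 bins, was subtracted, 56 genes passed the 2-fold rule on the higher side and 205 on the lower. The part of GC content in single differences was not tested.

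**Figure D4:**
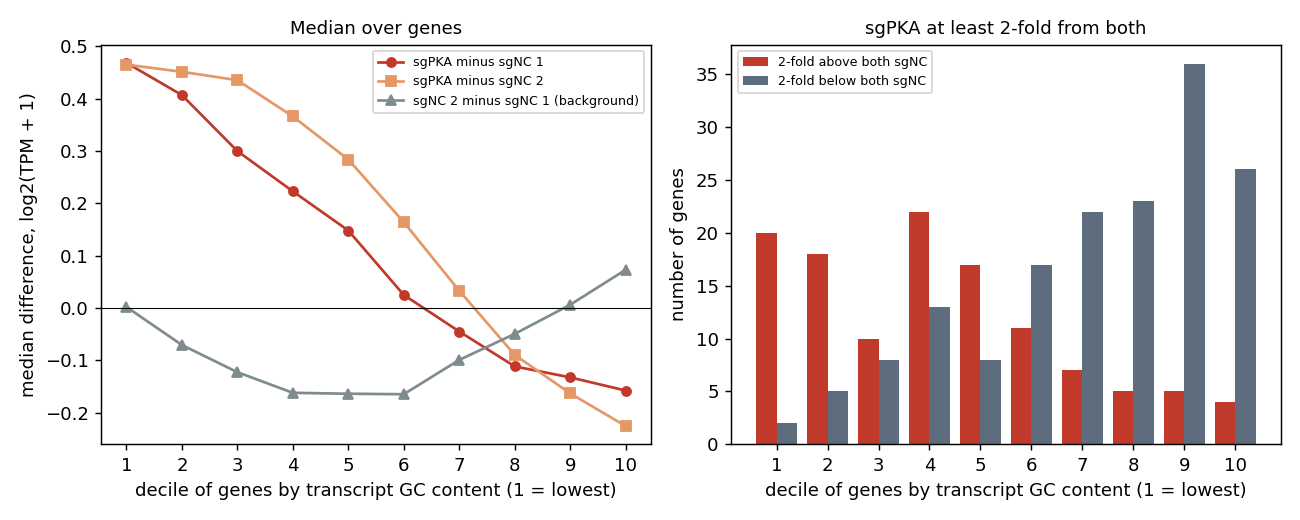
Left, median difference in log2(TPM + 1) in each decile of genes by transcript GC content, for sgPKA minus sgNC 1, sgPKA minus sgNC 2 and sgNC 2 minus sgNC 1; right, number of genes at least 2-fold above (red) or below (grey) both controls. The sgPKA lines are at 0.47 and 0.46 in the lowest decile and at -0.16 and -0.23 in the highest, and the line between the controls stays between -0.16 and 0.07.

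After that subtraction, genes of chromosome 16 stood higher in sgPKA than those of any other chromosome against either control. The median over 536 genes was 0.21 against sgNC 1 and 0.26 against sgNC 2, with -0.01 between the controls. Over the other chromosomes it ran between -0.16 and 0.20 against sgNC 1 and between -0.10 and 0.10 against sgNC 2. On chromosome 16, 60.6% of the genes lay above both controls, against 35.7% over all genes. The difference was alike on either side of the widest gap between neighbouring genes with a position, measured or not, at 33844758 to 46578591. It was 0.19 and 0.25 before the gap and 0.25 and 0.27 after it. Windows of 20 neighbouring genes with a mean of at least 5 TPM were taken in steps of 5 genes, so that they overlap. Of 1759 such windows, 8 of the 10 highest were on chromosome 16, some of them over the same stretch. By the 2-fold rule, 8 genes of chromosome 16 (1.49%) lay above both controls, TMC7 among them, beside 1.04% of all genes. On the lower side there was 1 gene (0.187%), beside 1.39% of all genes.

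Chromosome 20 was divided. Before the gap at 25673195 to 31257664 its 106 measured genes had medians of 0.24 and 0.24, with -0.01 between the controls, and 65.1% lay above both controls. After the gap its 204 genes had medians of -0.31 and -0.13, with -0.18 between the controls, and 54.4% lay below both. On chromosome 19, where PRKACA lies, a stretch with EIF3G and ELOF1 at its ends (chr19:10115014-11559230) held 35 genes with a mean of at least 5 TPM. Of these, 31 lay below both controls and 0 above both, without the GC subtraction. Over all genes of at least 1 TPM the shares were 26.9% below and 50.3% above. The 356 genes of chromosome 19 before its widest gap were also low, with medians of -0.24 and -0.25 without the GC subtraction. After it, 50.6% of them lay below both controls and 22.2% above. The low values did not stop at ELOF1: in the window of 20 genes from TMEM205 to GCDH (chr19:11342778-12899999), 17 lay below both controls and 0 above. The medians of the 35 genes, without the GC subtraction, were -0.67 and -0.43, with -0.29 between the controls. After it they were -0.54 and -0.30, with -0.30 between the controls. This stretch was picked after the windows were seen, and it holds SPC24 and CDKN2D but not PRKACA, which lies past its end.

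**Figure D5:**
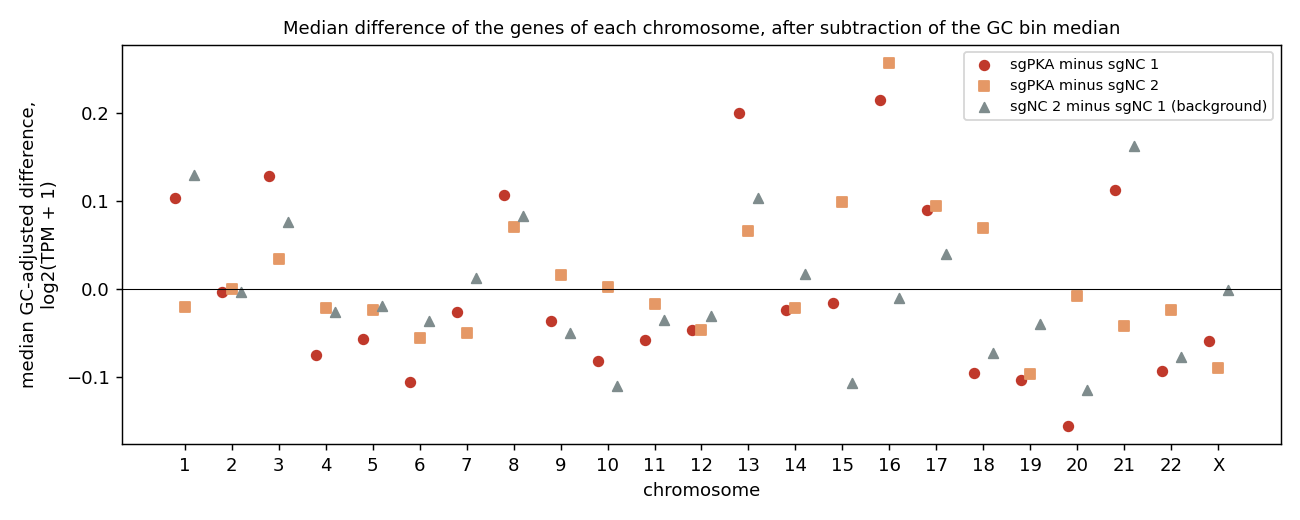
Median over the genes of each chromosome of the difference in log2(TPM + 1) after subtraction of the median of genes of like GC content, for sgPKA minus sgNC 1 (red circles), sgPKA minus sgNC 2 (orange squares) and sgNC 2 minus sgNC 1 (grey triangles). Chromosome 16 lies highest against either control, at 0.21 and 0.26, with -0.01 between the controls, while chromosome 13 lies at 0.20 against sgNC 1 and 0.07 against sgNC 2.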

How the data were processed

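RNA-seq libraries of polyadenylated RNA were made from HT-1080 cells, and the authors deposited their values as 1 table. It gives expected counts for each gene and library, which per the file headers are estimated counts without normalization; 10.6% to 12.7% of them per library are not whole. The deposited TPM values are scaled within each library by the authors for depth and estimated length. The tools StringTie 1.3.1, RSEM, fastp 0.18.0 and HISAT2 2.1.0 and the build GRCh38.p14 are named, per the submitters' processing notes, without saying which tool made which value. The sources used here give neither the annotation release nor the use of strand. Of 20323 genes, 3989 had no counts, and where rows share a symbol (488 repeat one) the one highest in mean TPM was kept. The members and gene lists were chosen with earlier results of these data known.

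Differences were taken in log2(TPM + 1), which understates changes of low genes, separately against sgNC 1 and sgNC 2, with sgNC 2 minus sgNC 1 as background. The test on rounded expected counts was edgeR's quasi-likelihood test (version 4.0.16, R 4.3.3; TMM, filterByExpr, Benjamini-Hochberg, two-sided) over all 4 libraries in 3 groups. The spread came from the 2 sgNC libraries alone, with 1 residual degree of freedom, so a call compares these libraries. The script was tested on simulated counts with much less spread than these libraries, so that test does not show how many changes it would find here. Of 1765 listed names, 1764 were in the table. The genes named were PRKACA, PRKACB, GPX4 and ALKBH5; the 12 farthest from the nearer control on each side, at a mean of at least 10 TPM, past 2-fold, and farther from it than the controls from each other; the 8 on each side with the largest TPM difference; up to 3 members per list past 2-fold, or else its most abundant member; and 5 genes near each control alone. Some genes that the rule names are not reported here.

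GC content and length came from the median-length coding transcript in GENCODE 29 (99.3% of genes), positions and promoters from RefSeq on GRCh38.p14 (98.6% with a position). In 83.8% of the promoters the bases after the start lie in a GENCODE transcript of the gene. Implied length is the count per TPM, centred on each library's median. Windows hold 20 neighbouring genes with a mean of at least 5 TPM. Intervals of count ratios are exact 95% intervals. Floors are 3 counts per library. Both cover counting error only. Alternatives were DESeq2 1.42.0 and its size factors, limma 3.58.1, no filter, only the 3 libraries, another pseudocount and TPM minimum, TPM rescaled by TMM factors, TMM-normalised CPM, and each control left out. The GC subtraction and the requirement on both scales were added after seeing the data.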

Additional observations from a re-analysis of the deposited data

How the results depend on the processing

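No paired analysis was possible because sgPKA is 1 library without a number, so that the groups share fewer than 2 replicate numbers. The edgeR result of 0 calls stayed at 0 with the size factors of DESeq2, with no filter, with the 3 libraries only and in limma, while the Wald test of DESeq2 called 118 genes, and the cause was not tested. The 121 genes at least 2-fold above both controls became 73 with TPM rescaled by TMM factors, 65 on TMM-normalised CPM, 239 with a pseudocount of 0.1, 56 after the GC subtraction, 49 when both TPM and CPM had to pass, and between 401 (without sgNC 1) and 467 (without sgNC 2) against 1 control. The 162 genes below both became 198 with rescaled TPM, 245 on CPM, 366 with a pseudocount of 0.1, 205 after the GC subtraction, and between 267 (without sgNC 1) and 668 (without sgNC 2) against 1 control. With no TPM minimum the counts were 128 and 164, and with a minimum of 5 TPM they were 90 and 121. The median of all genes, against the mean of the controls, was 0.15 in deposited TPM, 0.04 in rescaled TPM and 0.00 on CPM, so small list medians above 0 are on the deposited scale. Of the 48 named genes past 2-fold, 42 remained so on CPM, 46 with rescaled TPM and 42 after the GC subtraction. No named gene past 2-fold and no list median at least 0.2 from that of all genes against both controls changed sign. For these named genes that was nearly fixed in advance. Another pseudocount or the loss of 1 control cannot turn their sign, and a gene that came to lie between the controls was not counted. The lack of sign changes among them is therefore no measure of robustness. Sizes did move: by more than 1 SD of the differences against the 2 controls, 20 of 38 list medians moved after the GC subtraction, 23 with no minimum and 12 on CPM. Of 93 named genes, 44 moved on CPM and 28 after the GC subtraction. Without sgNC 1, 31 moved and without sgNC 2, 58. For a gene outside both controls, leaving out the nearer control passes this limit by construction, so these 2 numbers do not measure sensitivity. Depth limits the genes with 0 to 3 counts in sgPKA, for which only bounds or wide intervals can be given.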
